A study of Mus musculus with 3 samples.

Results

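The inflammatory cytokines of macrophages and stroma were followed in cultured fibroblasts of the mouse embryo, the cells that build connective tissue. The 10 genes are Tnf, Il1b, Il1a, Il33, Il1rn, Il1rl1, Il6, Il11, Lif and Il10, and they were found through probes whose transcript accession belongs to 1 of them. Of the 41174 probes of the array, 13 fell to 9 of the 10 genes, and no probe carried a transcript of Lif, so no value is given for it. The transcripts of the probes were NM_013693 (Tnf), NM_008361 (Il1b), NM_010554 (Il1a, 2 probes), NM_133775 (Il33), NM_001039701 (Il1rn, 2 probes), NM_010743 (Il1rl1, 2 probes) and NM_001025602 (Il1rl1), NM_031168 (Il6), NM_008350 (Il11) and NM_010548 (Il10). Cultures labelled SA1-null lack the Stag1 product SA1 by their label, a cohesin subunit, and were set against cultures labelled WT (wild type). All were untreated, came from embryos of stage E12.5 and were grown in DMEM with 10% serum. Each of 3 arrays held RNA of 1 culture labelled SA1-null in the dye Cy3 and of 1 culture labelled WT in the dye Cy5, and the labels call the 3 arrays biological replicates. No array had the dyes exchanged, so an effect of the dye and one of the genotype cannot be told apart. How Stag1 was disrupted, and whether the cultures of a group came from separate embryos, is not given in the sources used here. The p-values therefore rest on the spread of the ratio over these 3 pairs of cultures, each on its array. They do not rest on a stated number of embryos.

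Tumour necrosis factor and the interleukins of this group are secreted messengers of inflammation. TNF (from Tnf) and interleukin-1 (from Il1a and Il1b) act as early alarm signals, made above all by macrophages, and they drive stromal cells such as fibroblasts to release interleukin-6. Interleukin-33 (from Il33) is a nuclear protein of stromal and endothelial cells that is set free by damage and binds the receptor ST2, which Il1rl1 encodes and which also exists as a soluble decoy. Il1rn encodes the antagonist that blocks the interleukin-1 receptor. Interleukin-6, interleukin-11 and LIF signal through the shared receptor chain gp130, and interleukin-10 (from Il10) restrains macrophages.

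The stretches before the gene starts are shown for the 4 tested genes whose ratio had the same sign on all 3 arrays and spanned less than 2 log2 units over them, Tnf, Il1b and Il6 below 0 and Il11 above 0. They are the 250 bases before the start, 5′ to 3′ along the gene, from RefSeq on GRCm38.p6. For Il11, which has 2 listed starts, the second is shown, since only it held a searched motif. Capitals mark matches, on either strand, to letters of sites bound by inflammatory factors: GGGA or GGGG, then 4 bases of any kind, then CC for NF-kB, TGANTCA for AP-1, TTNNGCAA for C/EBP, and TATAAA for the TATA box.
Tnf, chr17:35202008-35202257, minus strand: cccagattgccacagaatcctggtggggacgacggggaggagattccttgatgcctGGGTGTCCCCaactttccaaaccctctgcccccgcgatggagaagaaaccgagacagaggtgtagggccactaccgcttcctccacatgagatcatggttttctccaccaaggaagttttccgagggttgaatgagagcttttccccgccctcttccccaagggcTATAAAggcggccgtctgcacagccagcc
Il1b, chr2:129371140-129371389, minus strand: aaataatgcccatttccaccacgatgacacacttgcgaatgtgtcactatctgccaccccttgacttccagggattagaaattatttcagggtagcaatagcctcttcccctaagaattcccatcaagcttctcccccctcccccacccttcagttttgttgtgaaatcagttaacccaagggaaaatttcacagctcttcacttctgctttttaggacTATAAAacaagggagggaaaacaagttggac
Il6, chr5:30012864-30013113, plus strand: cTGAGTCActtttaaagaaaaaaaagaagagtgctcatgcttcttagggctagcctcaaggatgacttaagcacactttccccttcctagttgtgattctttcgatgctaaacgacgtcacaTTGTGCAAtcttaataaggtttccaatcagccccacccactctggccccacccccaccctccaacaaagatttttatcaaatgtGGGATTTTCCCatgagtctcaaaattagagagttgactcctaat
Il11, chr7:4778142-4778391, minus strand: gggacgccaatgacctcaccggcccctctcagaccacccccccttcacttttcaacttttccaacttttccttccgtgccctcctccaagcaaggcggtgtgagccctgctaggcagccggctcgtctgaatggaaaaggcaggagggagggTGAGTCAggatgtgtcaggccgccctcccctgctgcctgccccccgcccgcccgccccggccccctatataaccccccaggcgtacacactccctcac
Tnf and Il1b each held a TATA match near the start, and Tnf also held an NF-kB match on the other strand, further from the start. Il6 held an NF-kB match near the start, overlapped by a second match on the other strand, a C/EBP match and an AP-1 match. Il11 held an AP-1 match. Of all 32851 promoter windows of this length, 28.4% held 1 of the NF-kB patterns, 6.75% the AP-1, 9.56% the C/EBP and 12.4% the TATA pattern. Of the 14 windows of the 9 genes listed in that table, 4 held an NF-kB, 5 an AP-1, 3 a C/EBP and 5 a TATA match. A match describes letters only and is not evidence of binding.

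The channel labels were checked first with Stag1. Its brightest probe had log2 ratios (channel labelled SA1-null over channel labelled WT) of 3.34, 3.74 and 3.47 on replicates 1, 2 and 3, with a mean of 3.52 ± 0.21 (SD, n = 3, limma adjusted p = 0.0273). The gene that should be disrupted in SA1-null cultures was thus higher in the channel labelled SA1-null, which goes against the labels. Where its probes lie relative to the disrupted part is not known here, and its other probes averaged 3.53, 2.17 and 0.59. Every ratio below is named by the channel labels, and all signs turn over if those labels are exchanged. Well above background were 60.6% to 66% of the probes in Cy3 and 62% to 67% in Cy5, and the median spot stood 1.84 to 2.98 times above its background in Cy3 and 1.96 to 4.02 times in Cy5. Replicate 1 stood apart: it lay on another slide than replicates 2 and 3, was read by another version of the scanner software, and its ratios spread most widely (SD over genes 0.84, 0.34 and 0.54 on replicates 1, 2 and 3). The number of genes with a ratio of 3 or more in size was 280, 13 and 37 on the same arrays. Markers of the labelled cell type were present, and each of the 15 fibroblast markers was well above background everywhere.

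Of the 10 cytokine genes, 7 could be tested, and none passed. Tnf, Il1b, Il6 and Il33 were lower in the channel labelled SA1-null on all 3 arrays, and Il11 was higher on all 3. Il33, Il1rn and Il1rl1 had their largest ratios in size on replicate 1. The test asked whether the mean ratio of a gene differs from 0 (limma, Benjamini-Hochberg adjustment over 18485 genes, threshold 0.05), and it called 0 of the 7, against 0.314% of all genes (0.303% lower and 0.0108% higher in the channel labelled SA1-null). At an unadjusted p under 0.05 there were 4 of the 7 (Tnf, Il1b, Il6 and Il11), against 7.49% of all genes, and 3 of these were lower, against 5.16%. The mean ratio was below 0 for 4 of the 7, against 54.4% of all genes, and at or below -1 for the same 4 (Tnf, Il1b, Il33 and Il6), against 3.11%. The ratio was below 0 on every array for 4 of the 7, against 19.1% of all genes, and above 0 on every array for 1, against 13.3%. The median ratio of the 7 was -1.14, beside -0.02 for all genes, and -0.43 for the brightest probes of all 9 genes with a probe, dim ones included. Il1b entered the test only through the channel in which it was bright, so these counts and medians describe the genes and lend them no support. With 3 arrays, turning signs gives no two-sided p under 0.25, and the p-values here borrow the spread of other genes through limma.

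**Figure D1:**
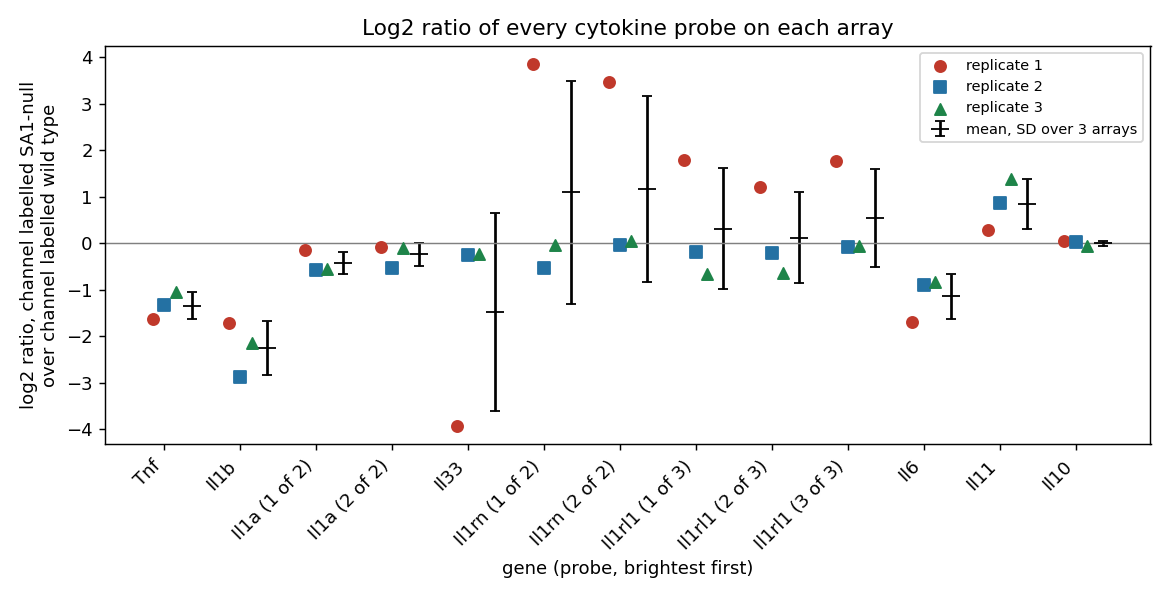
Log2 ratio (channel labelled SA1-null over channel labelled WT) of the 13 cytokine probes on each of the 3 arrays, with the mean and SD beside them. Tnf, Il1b, Il6 and Il33 lie below 0 on all arrays and Il11 above 0. Il33, Il1rn and Il1rl1 are farther from 0 on replicate 1 than on the other arrays.

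Tnf encodes the alarm cytokine TNF. Its probe is spotted 10 times on each array, and the median spot read 67.5, 49 and 55 in Cy3 (labelled SA1-null) on replicates 1, 2 and 3, against 800.5, 284.5 and 179 in Cy5 (labelled WT). Local background was 23.8, 31 and 26.5 in Cy3 and 64, 52.8 and 50.8 in Cy5, so Tnf stood 1.58 to 2.84 times above background in Cy3 and at least 3.53 times in Cy5. All 10 spots were well above background in both channels on every array. The log2 ratios were -1.64, -1.33 and -1.06, with a mean of -1.34 ± 0.29 (SD, n = 3, 95% interval -1.81 to -0.88), or 2.53-fold lower in the channel labelled SA1-null. The spots of 1 array spread less than the arrays did, with SDs of 0.06, 0.14 and 0.06 over spots. The gene missed the threshold (limma adjusted p = 0.109).

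Il1b encodes interleukin-1 beta, which is made as a precursor and cut by caspase-1. Its median spot read 29.3, 40 and 39 in Cy3 (labelled SA1-null) on replicates 1, 2 and 3, against 460.5, 888 and 316 in Cy5 (labelled WT). The Cy3 spots were hardly brighter than their background of 24.5, 30.5 and 27.5, and 0, 4 and 8 of the 10 spots were well above it, so that 1 of 3 arrays measured the channel by the majority of its spots. In Cy5 all 10 spots were well above background on every array. The log2 ratios were -1.72, -2.87 and -2.15, with a mean of -2.25 ± 0.58 (SD, n = 3, limma adjusted p = 0.0780). Because Cy3 was measured on 1 array only, the size of the ratio depends on how dim spots are treated. The mean was -2.80 with no background subtraction, -3.91 with no offset and -5.15 with processed signals, all larger in size than here. Over all alternative settings it ran from -5.15 to -1.94, the latter without replicate 2. The ratios of single spots ran from -1.87 to -1.45, from -2.95 to -2.70 and from -2.38 to -1.89 on the 3 arrays. By the processed signals of the scanner software the ratios were -5.24, -5.47 and -4.69 on replicates 1, 2 and 3. The differences between arrays thus also depend on the treatment of dim spots.

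The sizes of these ratios, and their calls, rest on the treatment of dim spots and on the replicates. With no offset the mean ratios were -2.08 for Tnf and -3.91 for Il1b, with the processed signals of the scanner software -2.33 and -5.15, and both passed in these settings (limma adjusted p from 0.00447 to 0.00957). Without replicate 1 both passed as well, Tnf at -1.19 (limma adjusted p = 0.0416) and Il1b at -2.51 (limma adjusted p = 0.00365). Without replicate 2 the limma adjusted p was 0.52 for Tnf and 0.292 for Il1b, without replicate 3 it was 0.691 and 0.783, and with the channels as separate samples it was 0.395 and 0.687.

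Il1a encodes interleukin-1 alpha, an alarm form kept in the cell until damage. Its 2 probes were not well above background in Cy3 (labelled SA1-null) on any array, at 29, 33.5 and 33 for the brighter probe against a background of 26, 33 and 28. In Cy5 (labelled WT) the same probe read 76, 109 and 79 against a background of 57, 57 and 41, and it was well above background on replicates 2 and 3 only. The gene did not enter the test. As a nominal bound on the means over 3 arrays, Cy3 lay 1.31-fold below Cy5 by the brighter probe and 1.13-fold by the other. These bounds set the mean Cy5 level against the lowest Cy3 level that counts as well above background or the spot's own, whichever is higher. They are not firm limits, because that Cy3 level is the lowest of any probe counted so. The means also include replicate 1, where neither channel was above background, so the bounds need not hold on each array. They are open to dye bias as well, because no dyes were swapped. Fitted without the filter on all probes, the ratios were -0.43 ± 0.25 and -0.24 ± 0.25 (SD, n = 3, limma adjusted p = 0.819 for both).

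**Figure D2:**
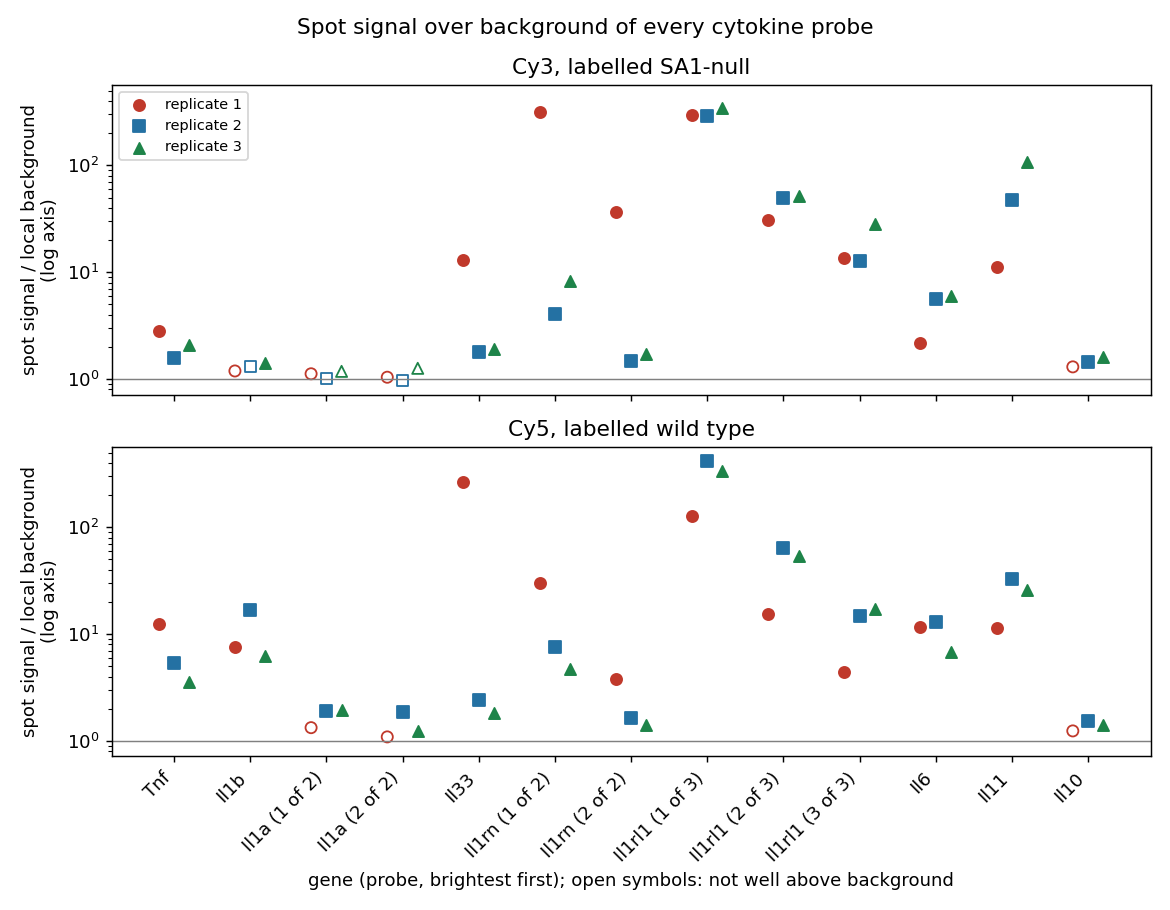
Spot signal divided by local background (log axis) of the 13 cytokine probes in Cy3, labelled SA1-null (upper panel), and in Cy5, labelled WT (lower panel), on replicates 1 to 3. Open symbols mark a channel not well above background: Il1b, Il1a and Il10 lie near 1 in Cy3, and Il33 and Il1rn tower over the other arrays on replicate 1 in both channels.

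Il33 was read by 1 spot per array. That spot gave 341, 50 and 48 in Cy3 (labelled SA1-null) on replicates 1, 2 and 3, against 18089, 127 and 91 in Cy5 (labelled WT). Both channels were well above background on every array, yet on replicates 2 and 3 the spot was only 1.79 to 2.40 times its background in either channel. The log2 ratios were -3.94, -0.26 and -0.24, and 69 of the 18485 genes were as low or lower than Il33 on replicate 1. By the processed signals of the scanner software the ratios were -4.02, -0.73 and -1.02. The small ratios on replicates 2 and 3 thus depend on how dim spots are treated. The mean was -1.48 ± 2.13 (SD, n = 3, 95% interval -3.60 to 0.64, limma adjusted p = 0.707), and without replicate 1 it was -0.25. No second probe of the gene was present to set beside this spot, which carried no outlier or saturation flag.

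Il1rn, the interleukin-1 antagonist, went the other way on the same array. Its brighter probe read 8162, 130 and 197 in Cy3 (labelled SA1-null) on replicates 1, 2 and 3, against 1819, 380.5 and 228 in Cy5 (labelled WT). Its log2 ratios were 3.86, -0.54 and -0.04, and 11 genes including Il1rn were as high or higher on replicate 1. The second probe gave 3.47, -0.05 and 0.05, so that both probes showed the excess on replicate 1 and nothing near it elsewhere. On replicates 2 and 3 that second probe was only 1.4 to 1.71 times its background in either channel. By the processed signals of the scanner software its ratios there were -0.57 and 0.40, so their size depends on how dim spots are treated. The mean of the brighter probe was 1.09 ± 2.41 (SD, n = 3, 95% interval -1.29 to 3.48, limma adjusted p = 0.759). Without replicate 1 the mean turned to -0.29. Raw signals of both channels were higher on replicate 1 than on the other arrays for Il33 and Il1rn alike, and signals of separate arrays were not scaled to each other in these values.

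Il1rl1, the receptor gene of interleukin-33, was among the brightest of these probes. Its brightest probe read 7631.5, 9399 and 8193 in Cy3 (labelled SA1-null) on replicates 1, 2 and 3, against 7252, 22362 and 17964 in Cy5 (labelled WT). The log2 ratios were 1.80, -0.18 and -0.67, positive on replicate 1 and negative on the others. The other probes gave 1.22, -0.21 and -0.64, and 1.76, -0.08 and -0.07, so all 3 probes agreed in sign on every array. The probes were assigned to 2 transcripts, and the files do not say which of them give the membrane and the soluble form. The mean of the brightest probe was 0.32 ± 1.31 (SD, n = 3, 95% interval -1.01 to 1.65, limma adjusted p = 0.882), and without replicate 1 it turned to -0.43. On replicate 1, 231 genes including Il1rl1 were as high or higher.

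The large ratios of Il33, Il1rn and Il1rl1 all came from replicate 1. Over the 3 arrays their ratios spanned 3.70 (Il33), 4.40 (Il1rn) and 2.47 (Il1rl1) log2 units, and 3 of the 7 tested cytokine genes spanned 2 or more, against 4.35% of all genes. Tnf, Il6, Il11 and Il1b spanned 0.59, 0.86, 1.09 and 1.15. Slide and scanner software changed together with replicate 1, so their part cannot be told apart from that of the cultures. Neural and glial markers, a list added after values of some had been seen, also stood out on replicate 1: the 9 tested of 15 had array medians of -4.62, 0.01 and -0.08. Sox2, Nes, Fabp7, Ncan and Aldh1l1 lay between -6.02 and -4.62 on replicate 1 and Slc1a3 at -2.24, whereas S100b was at 3.31, Tubb3 at 0.48 and Sox1 at -0.22. The summed signal of the 14 markers on the array was 6290 to 15738 in Cy3 (labelled SA1-null) and 13199 to 112300 in Cy5 (labelled WT), 8 were above background in both channels throughout, and Dcx was above it in neither channel on any array. The part of these markers in the ratios of Il33, Il1rn and Il1rl1 was not tested.

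**Figure D3:**
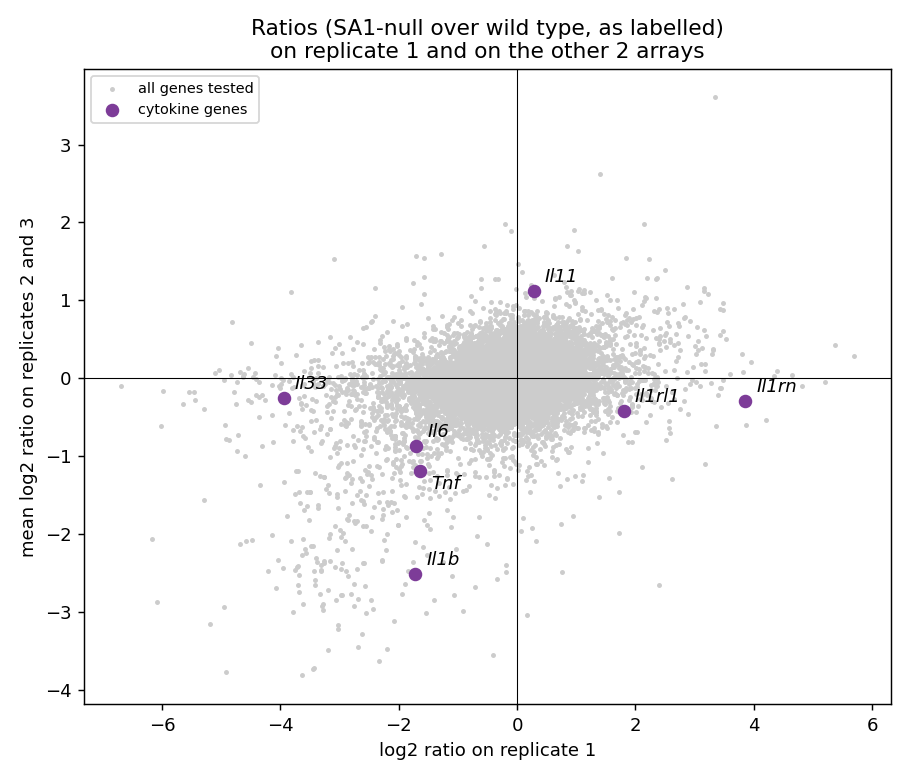
Log2 ratio on replicate 1 (horizontal) against the mean log2 ratio on replicates 2 and 3 (vertical), for all 18485 genes tested (grey) and the 7 tested cytokine genes. Il33 and Il1rn lie near -4 and 4 on replicate 1 and near 0 on the other arrays. Tnf, Il6, Il1b and Il33 are below 0 on both axes.

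Il6, the gp130 cytokine that fibroblasts release on stimulation by TNF and interleukin-1, followed Tnf in sign. Its probe, also spotted 10 times, had median spots of 52, 174.5 and 161 in Cy3 (labelled SA1-null) on replicates 1, 2 and 3, against 683, 661 and 349 in Cy5 (labelled WT). All spots were well above background, and Cy3 was 2.17 to 6.02 times and Cy5 up to 13 times background. The log2 ratios were -1.70, -0.89 and -0.84, with spot SDs of 0.10, 0.05 and 0.09. The mean was -1.14 ± 0.48 (SD, n = 3, 95% interval -1.74 to -0.54, 2.21-fold lower, limma adjusted p = 0.291). By the processed signals of the scanner software the ratios were -2.60, -1.04 and -1.08. Over the alternative settings the mean ran from -1.58 with those signals to -0.86 without replicate 1, so its size depends on both.

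Il11, a gp130 cytokine of stromal cells, had the opposite sign. Its single spot read 258, 1382.5 and 2928 in Cy3 (labelled SA1-null) on replicates 1, 2 and 3, against 645, 1491.5 and 1214 in Cy5 (labelled WT). After normalization within arrays the log2 ratios were 0.29, 0.87 and 1.38, all above 0, though the raw Cy3 signal was above the Cy5 signal on replicate 3 only. The mean was 0.85 ± 0.55 (SD, n = 3, 95% interval 0.20 to 1.49, 1.80-fold higher), and the gene missed the threshold (limma adjusted p = 0.548).

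Il10, the cytokine that restrains macrophages, lay at the edge of detection. Its 10 spots had a median of 29.3, 42 and 42 in Cy3 (labelled SA1-null) on replicates 1, 2 and 3, against 76, 79 and 69.5 in Cy5 (labelled WT), which is 1.30 to 1.62 times background in Cy3 and 1.24 to 1.54 times in Cy5. The majority of spots was well above background on 2 of 3 arrays in each channel, so the gene did not enter the test. Fitted without the filter, its ratio was 0.00 ± 0.06 (SD, n = 3, limma adjusted p = 0.994), where a difference was hardly detectable at this signal.

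The pathway of these cytokines was described with lists of genes, chosen with earlier results of these data known. Of 10 tested genes in the list for interleukin-1 family processing, 1 passed, beside 0.303% of all genes called lower. This was Casp1, which encodes the caspase that matures interleukin-1 beta. It had ratios of -2.22, -2.06 and -2.35 and a mean of -2.21 ± 0.15 (SD, n = 3, limma adjusted p = 0.0275). Without replicate 2 or without replicate 3 limma called 0 of all genes (1295 and 737 at an unadjusted p under 0.05), and without replicate 1 all 58 calls were kept among 284, Casp1 and the 9 macrophage markers that passed included. Pycard, the adaptor that joins sensors to caspase-1 and named here after its values were seen, had a mean of -1.87 ± 0.36 and did not pass (limma adjusted p = 0.0615). The list had a median of -0.27, with 7 of 10 below 0 and 3 of 10 lower at an unadjusted p under 0.05 in limma. It holds more than processing genes, since Il18 (-0.39), Il18bp (-0.09) and Gsdmd (-0.66) are among those below 0. Of all genes 54.4% were below 0, 5.16% were lower at that unadjusted p, and their median was -0.02.

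Receptor and signalling genes had medians nearer 0 in most lists, and none passed in limma. Of 14 receptor and signalling genes of interleukin-1 and interleukin-33, 8 were below 0 (median -0.01), with the signalling receptor Il1r1 at 0.65 ± 0.52 (limma adjusted p = 0.662) and the decoy receptor Il1r2 at -0.40 ± 0.38. At an unadjusted p under 0.05 were 1 of these 14, 3 of 12 TNF genes and 3 of 11 NF-kB genes, beside 7.49% of all genes. The 12 TNF receptor and signalling genes had a median of -0.15, with Rhbdf2, a partner of the TNF-shedding protease, at -0.98 ± 0.35 and Tnfaip3, an inhibitor that NF-kB induces, at -1.01 ± 0.77 (limma adjusted p = 0.275 and 0.591). Among 11 NF-kB subunits and inhibitors (median -0.15), Nfkbie and Nfkbiz were at -0.66 ± 0.39 and -0.66 ± 0.45 (SD, n = 3).

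The list of gp130 receptor and signalling genes, which also holds the cytokine genes Osm, Ctf1 and Clcf1, was centred near 0. Of its 15 genes 8 were below 0, the median was -0.04, and the extremes were -0.42 and 0.44, with 0 under an unadjusted p of 0.05 in limma. Ptpn11, a phosphatase of this pathway, was at -0.37 ± 0.28, and Pias3, an inhibitor of STAT3, at 0.44 ± 0.45 (SD, n = 3). In the list of interleukin-10 receptor and signalling genes, Il10ra, the receptor chain of blood cells, had ratios of -3.37, -1.65 and -1.67 (mean -2.23 ± 0.99, limma adjusted p = 0.229), and 6 of 7 genes were below 0 (median -0.52), with 3 under an unadjusted p of 0.05 and none passing in limma, beside 54.4% and 7.49% of all genes. Bcl3, an NF-kB cofactor, was at -0.75 ± 0.24. The 9 genes that bind or destabilise cytokine mRNA had a median of 0.02, with Zfp36l1 at -0.29 ± 0.46 and Elavl1 at 0.23 ± 0.30, and 0 had an unadjusted p under 0.05 in limma.

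Markers of macrophages lay below 0 together with Tnf, Il1b and Il6. All 17 tested markers were below 0 on all 3 arrays, with a median of -2.79, array medians of -3.31, -2.47 and -2.44, and 9 of 17 passed, beside 0.303% of all genes called lower. Like the other lists, this one was chosen with earlier results of these data known, so its shares are a description only. Tyrobp, Ctss and C1qc, the brightest, were at -3.15 ± 0.15, -4.15 ± 0.73 and -2.86 ± 0.49 (SD, n = 3, limma adjusted p from 0.0273 to 0.0391). Summed over the 17 markers, the normalized signal was 6578 to 48241 in Cy3 (labelled SA1-null) over the arrays, against 49794 to 562730 in Cy5 (labelled WT), and none was below background on all arrays in either channel. The fibroblast markers had a median of 0.71, array medians of 1.19, 0.10 and 0.71, and 0 of 14 tested passed in limma. At an unadjusted p under 0.05 in limma 6 of the 14 were higher and 0 lower, beside 7.49% of all genes in either direction. Col1a2, Col1a1 and Col3a1, the brightest, were at 0.70 ± 0.61, 1.14 ± 0.72 and 1.17 ± 0.60 (SD, n = 3). The part of either list in the cytokine ratios was not tested, and fewer cells of a type cannot be told apart from less RNA per cell in these samples.

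Markers of other cell types that can make or sense these cytokines were mostly dim or split in sign. Of 8 mast cell markers, which would stand for a cell type with the interleukin-33 receptor, 2 entered the test. These were above background in Cy5 on all 3 arrays, and none of the 8 was above it in both channels throughout. Of 9 endothelial markers 3 were tested (median 0.24), and Pecam1 and Tie1 were above background in neither channel on any array. The 3 tested ones differed in sign on replicate 1, with ratios over the arrays of -2.83, -0.32 and -0.27 for Kdr, 1.57, 0.46 and 0.41 for Emcn, and 0.74, 0.08 and -0.09 for Egfl7. Of 9 epithelial markers 6 were above background in both channels throughout, and Epcam and Cldn4 were above it in neither channel on any array. The 7 tested ones ran from -1.02 to 0.66 (median 0.06), with 3 of 7 below 0. At an unadjusted p under 0.05 in limma 2 of the 7 were lower, beside 5.16% of all genes, and 0 were higher. Of 10 lymphocyte markers 5 were tested, with a median of -0.01.

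**Figure D4:**
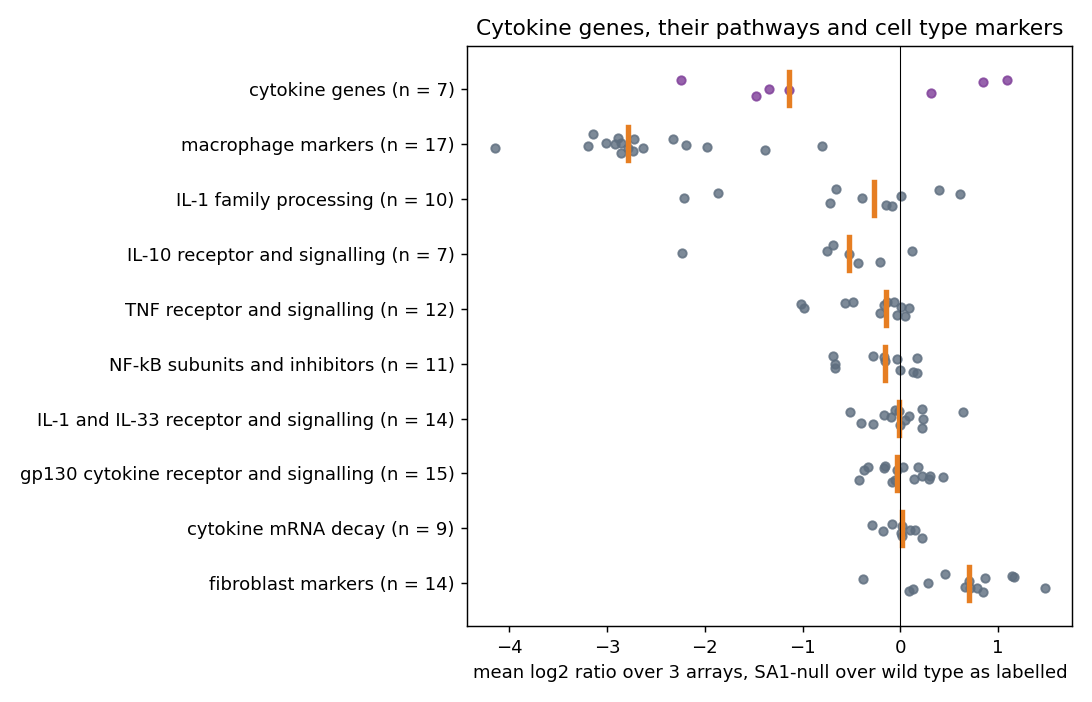
Mean log2 ratio over 3 arrays (channel labelled SA1-null over channel labelled WT) of the 7 tested cytokine genes, of their pathway lists and of macrophage and fibroblast markers. Each point is a gene and the bar is the median: macrophage markers centre on -2.79 and fibroblast markers on 0.71, with most receptor and signalling lists near 0.

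The genes most like each cytokine were found by the root mean square difference of the 3 log2 ratios, over 12018 other genes with a symbol. Nearest to Tnf were Glipr1 (0.1), Pik3r5 (0.112) and Neurl3 (0.125), and nearest to Il6 were Pkib (0.102), Parvg (0.129) and the Toll-like receptor gene Tlr1 (0.143). Nearest to Il33 were the apolipoprotein gene Apoc1 (0.101), Chchd10 (0.134) and the glycolytic gene Aldoc (0.135), all near -4 on replicate 1. Il1rn had no gene as close, with Pcdh17 (0.359), Cav3 (0.386) and the cartilage collagen gene Col9a1 (0.388). Il1rl1 lay nearest to Rab15 (0.0666), Tmem151a (0.0796) and Emb (0.124), and Il11 to the protease inhibitor gene Timp3 (0.198), Sumf2 (0.218) and Rabl2 (0.222). With 3 arrays, such likeness is a description of these ratios.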

How the data were processed

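Each array has a scanner file with, per the file headers, the median intensity of each spot and of its surroundings in either dye. The scanner software was Agilent Feature Extraction, in version 10.7.3.1 except for replicate 1, which was read with 10.1.1.1. The same files, per the file headers, hold processed intensity values and their log10 ratio (Cy5 over Cy3). The deposited table holds 1 log2 ratio per probe and array, made with limma per the submitters' processing notes. The sources used here give neither its settings nor its centring. It ran as Cy5 over Cy3 (correlations with the ratios computed here, sign turned, of 0.985, 0.982 and 0.997; medians as deposited -0.02, -0.02 and -0.01).

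Signals were background-corrected (normexp, offset 50) and loess-normalized within arrays in limma 3.58.1 under R 4.3.3, with control spots and spots with outlier flags at weight 0 and then left out. Spots of a probe were averaged. A probe counted as well above background in a channel when the majority of its spots did. Kept were 24015 probes with values on all arrays and well above background in 1 channel on all of them. The brightest stood for each gene, which left 18485 genes. Transcripts were named through the RefSeq table of GRCm38.p6 (23374 of 41174 probes), and promoter sequences are RefSeq's. No probe coordinates are given. Bounds and marker sums used channel values after Aquantile normalization.

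lmFit and eBayes tested mean ratios against 0, with Benjamini-Hochberg adjustment over all genes. The test was checked on simulated data. The number of arrays limits the precision.

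Members and lists were chosen with earlier results of these data known. Named are all members, the genes of each pathway list that passed or else the 2 with the smallest p (and Pycard, outside this rule), the 3 brightest tested macrophage and fibroblast markers, and the 3 genes most like each member that was well above background in both channels. The slide could not be fitted as a random block from 3 arrays. Figures were drawn with matplotlib 3.10.9.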

Additional observations from a re-analysis of the deposited data

How the results depend on the processing

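Of 125 recomputed ratios of single cytokine genes, 15 passed where they had not, 3 turned their sign, and the others kept direction and side of the threshold. Il1rl1 turned to -0.24 with median centring, where the median of all genes was -0.30. Without replicate 1, Il1rl1 turned to -0.43 and Il1rn to -0.29, and with single replicates left out they reached 0.81 and 1.91. The cytokine genes called numbered 1 with no background subtraction and with a threshold of 0.1, 2 with an offset of 0, with processed signals and with a trended robust variance, 5 with a slide term (Tnf, Il1b, Il33, Il1rn and Il6), and 0 to 2 when a replicate was left out. In that slide fit the spread comes from the 2 arrays of 1 slide alone. The genes called in all, 58 in the main analysis, numbered 118 with no background subtraction, 265 with an offset of 0, 326 with processed signals, 34 with median centring, 160 with scale normalization between arrays, 0 with no filter on dim probes (1982 at an unadjusted p under 0.05 in limma), 92 with both channels well above background, 142 with a trended robust variance, 0 with both channels as separate samples and no replicate block (633 at an unadjusted p under 0.05), 1770 with the slide term, 132 at a threshold of 0.1, and 0 to 284 when a replicate was left out (284 without replicate 1, 0 without replicate 2 or 3). The median of the tested cytokine genes, -1.14, was -0.43 with no filter, -0.41 with both channels well above background, 0.22 with every probe on its own, and from -1.29 to -0.43 when a replicate was left out. The cause of these changes was not tested, apart from the other genes or samples that a filter or a left-out replicate brings by construction. Dim signal limits Il1b, Il1a and Il10 most, and Il33 and the second Il1rn probe on replicates 2 and 3. Because both channels of an array were 1 ratio, the main analysis is itself paired by array.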
